A study of Homo sapiens with 32 samples.

Results

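The 8 genes described here center on *TXNIP*, which encodes thioredoxin-interacting protein, and were followed through all 8 groups of an LNCaP RNA-seq experiment. They were the 5 alpha-arrestins *TXNIP*, *ARRDC1*, *ARRDC2*, *ARRDC3*, and *ARRDC4*, the glucose-sensing transcription factor *MLXIP* (MondoA) with its partner *MLX*, and the thioredoxin gene *TXN*. They were 8 of 25498 genes in the deposited tables, taken by gene symbol. All 8 passed the filter for low counts, at least 5 counts in at least 3 libraries, which 16995 genes passed. The set was chosen on the fall of *TXNIP* after 1 hour of either ligand against the CSS control, so values of that contrast are described here without a test.

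LNCaP is an androgen-sensitive human line derived from a prostate carcinoma that had spread to a lymph node, and every group came from this 1 line. Cells plated in medium with FBS either stayed in FBS or were moved the next day to charcoal-stripped serum (CSS), which is depleted of steroid hormones. After a further day in CSS, cells were left without ligand (the CSS group) or received 100 ng/mL of EGF, the ligand of the receptor EGFR, or of NRG-1, a ligand of HER3, for 5 minutes, 1 hour, or 4 hours. Each of the 8 groups held 4 libraries, the replicates 1 and 2 of batch 1 and of batch 2, and depth ran from 63822654 to 92401724 expected counts per library. Batch was balanced over the groups, and 9443 of 16995 genes (55.6%) differed between the 2 batches, so each fit had a term for batch. All 8 luminal prostate markers checked were expressed, with a summed level of 2994 to 5730 TPM per library. The summed markers of basal epithelium, fibroblasts, and endothelium reached at most 5.80 TPM in any library. The summed leukocyte markers, 3.33 to 4.08 TPM in CSS, stood at 12.2 to 16.3 TPM at 4 hours of EGF and 6.64 to 10.9 TPM at 4 hours of NRG-1, nearly all of it *CD68*, while *PTPRC* reached at most 0.04 TPM. The part of *CD68* expression in the results below was not tested.

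Alpha-arrestins are adaptor proteins with an arrestin fold. Most carry PPxY motifs that recruit ubiquitin ligases of the NEDD4 family to membrane proteins, which are then taken up and sorted. *TXNIP* binds and inhibits reduced thioredoxin and restrains glucose uptake by promoting the internalization of glucose transporters. Its transcription is driven by MLXIP and MLX, which enter the nucleus as glucose phosphates rise and bind carbohydrate response elements made of paired E-box-like half-sites. *ARRDC4* is another glucose-responsive target of this pair of factors.

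Promoter sequence showed which members carry such letters near their start sites. The windows below ran from 250 bases before to 50 bases after a RefSeq start site, on GRCh38.p14, and all 8 members matched an entry. *TXNIP* is shown because it holds the paired half-site, *ARRDC4* because it holds an E-box, and *ARRDC3* because its RNA moved like that of *TXNIP* at 1 hour. Capitals mark the motif matches.
TXNIP, chr1:145996530-145996829, minus strand: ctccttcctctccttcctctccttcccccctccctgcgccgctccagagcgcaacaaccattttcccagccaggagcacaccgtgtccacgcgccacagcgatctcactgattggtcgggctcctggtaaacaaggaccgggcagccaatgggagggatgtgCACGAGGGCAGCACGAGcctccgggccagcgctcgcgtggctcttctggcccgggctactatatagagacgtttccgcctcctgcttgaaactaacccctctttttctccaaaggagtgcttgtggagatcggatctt
ARRDC4, chr15:97960453-97960752, plus strand: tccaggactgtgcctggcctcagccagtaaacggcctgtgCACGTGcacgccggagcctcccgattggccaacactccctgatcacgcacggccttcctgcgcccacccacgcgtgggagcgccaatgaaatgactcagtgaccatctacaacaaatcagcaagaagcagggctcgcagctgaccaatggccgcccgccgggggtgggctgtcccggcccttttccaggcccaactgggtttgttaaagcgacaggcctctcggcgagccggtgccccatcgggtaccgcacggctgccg
ARRDC3, chr5:91383268-91383567, minus strand: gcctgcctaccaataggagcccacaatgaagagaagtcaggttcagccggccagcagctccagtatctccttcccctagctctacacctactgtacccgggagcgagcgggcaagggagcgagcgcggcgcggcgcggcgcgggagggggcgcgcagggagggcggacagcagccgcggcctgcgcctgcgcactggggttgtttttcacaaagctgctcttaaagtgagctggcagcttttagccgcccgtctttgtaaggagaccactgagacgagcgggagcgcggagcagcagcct

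The *TXNIP* window printed above held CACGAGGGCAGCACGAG, which fits the paired half-site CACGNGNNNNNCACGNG, beginning at position -88 from the start site. Both strands of 35116 promoter windows of the same length were searched, and 20 (0.057%) held this pattern. The pattern was written from the element already known in *TXNIP*, so this share is a description. The E-box CACGTG, which is one form of a half-site, began at position -210 in *ARRDC4* and -50 in *MLX*, and 2548 windows (7.26%) held it. The other *TXNIP* window, from another start site, and the windows of *ARRDC1*, *ARRDC2*, *ARRDC3*, *MLXIP*, and *TXN* held neither run of letters. Only these exact patterns were searched, so a window without them may still hold another form of the element.

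The members differed widely in level. Per transcript length, *TXN* was the most abundant member in CSS at 385 ± 30.0 TPM (SD, n = 4), followed by *TXNIP* at 286 ± 60.6 TPM (SD, n = 4). *MLX* came next at 74.2 ± 6.90 TPM (SD, n = 4). *ARRDC3* and *ARRDC1* overlapped at 52.9 ± 2.25 TPM (SD, n = 4) and 48.9 ± 3.51 TPM (SD, n = 4). *ARRDC4* stood at 24.4 ± 2.23 TPM (SD, n = 4) and *MLXIP* at 19.6 ± 2.62 TPM (SD, n = 4). *ARRDC2* was the least abundant, at 4.71 ± 0.665 TPM (SD, n = 4).

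**Figure D1:**
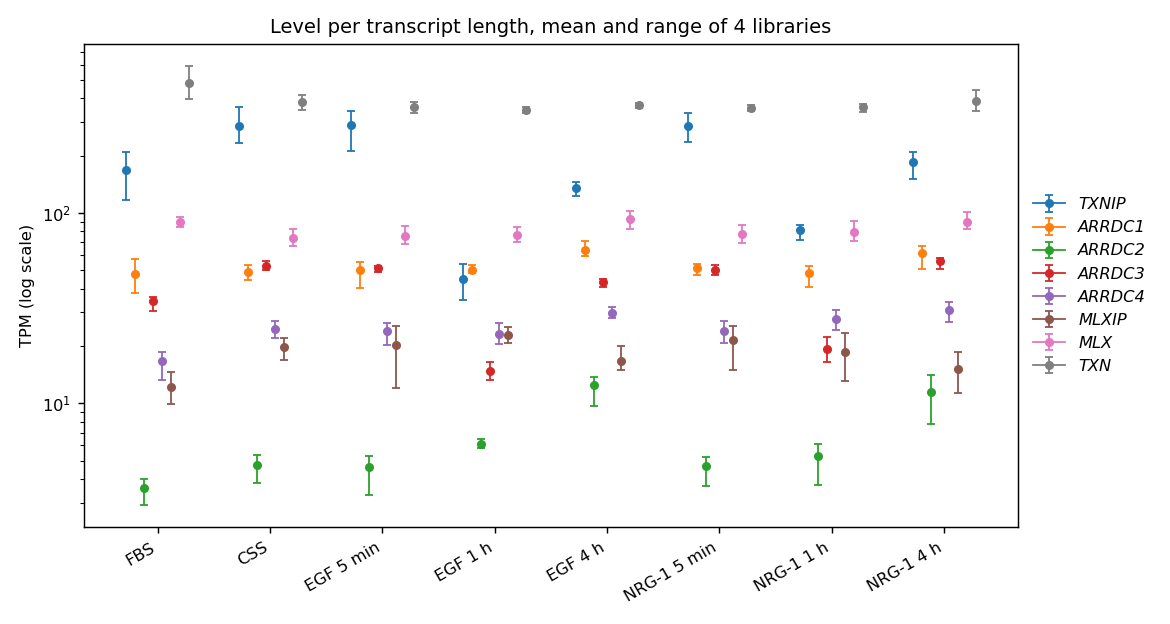
Level of the 8 members in each group in TPM, on a log axis. Points are means of 4 libraries and bars run from the lowest to the highest library. *TXN* lies highest and *ARRDC2* lowest in every group, while *TXNIP* drops from 286 TPM in CSS to 45.1 TPM at 1 hour of EGF.

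*TXNIP* RNA dropped to a small part of its CSS level at 1 hour and had come partway back at 4 hours. In CSS the libraries held 511 and 547 CPM in batch 1 and 388 and 408 CPM in batch 2 (CPM, library-scaled counts). After 5 minutes of EGF they held 523 and 519 CPM in batch 1 and 395 and 410.1 CPM in batch 2. After 5 minutes of NRG-1 they held 503 and 488 CPM in batch 1 and 379 and 431 CPM in batch 2. The 5-minute libraries overlapped with CSS, although 1 of them (NRG-1 batch 2 replicate 1) lay below every CSS library, and batch 2 was lower than batch 1 in all 3 groups. After EGF for 1 hour they held 81.7 and 81.3 CPM in batch 1 and 63.8 and 58.2 CPM in batch 2. At 1 hour of NRG-1 they held 132 and 148 CPM in batch 1 and 135 and 139 CPM in batch 2. Neither 1-hour group overlapped with CSS or with the other ligand. After EGF for 4 hours they held 236 and 251 CPM in batch 1 and 225 and 218 CPM in batch 2. After NRG-1 for 4 hours they held 344 and 343 CPM in batch 1 and 294 and 300.3 CPM in batch 2. All 8 of the 4-hour libraries lay above every 1-hour library and below every CSS library. In FBS the libraries held 347 and 377 CPM in batch 1 and 257 and 257 CPM in batch 2, also below every CSS library.

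By mean, the order of *TXNIP* from high to low was CSS (464 ± 77.3 CPM (SD, n = 4)), 5 minutes of EGF (462 ± 68.6 CPM (SD, n = 4)), 5 minutes of NRG-1 (450.3 ± 57.1 CPM (SD, n = 4)), 4 hours of NRG-1 (321 ± 27.0 CPM (SD, n = 4)), FBS (309.5 ± 61.5 CPM (SD, n = 4)), 4 hours of EGF (233 ± 14.3 CPM (SD, n = 4)), 1 hour of NRG-1 (139 ± 6.66 CPM (SD, n = 4)), and 1 hour of EGF (71.2 ± 12.0 CPM (SD, n = 4)). The first 3 groups overlapped with each other, as did 4 hours of NRG-1 with FBS. The other neighbors in this order did not overlap.

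**Figure D2:**
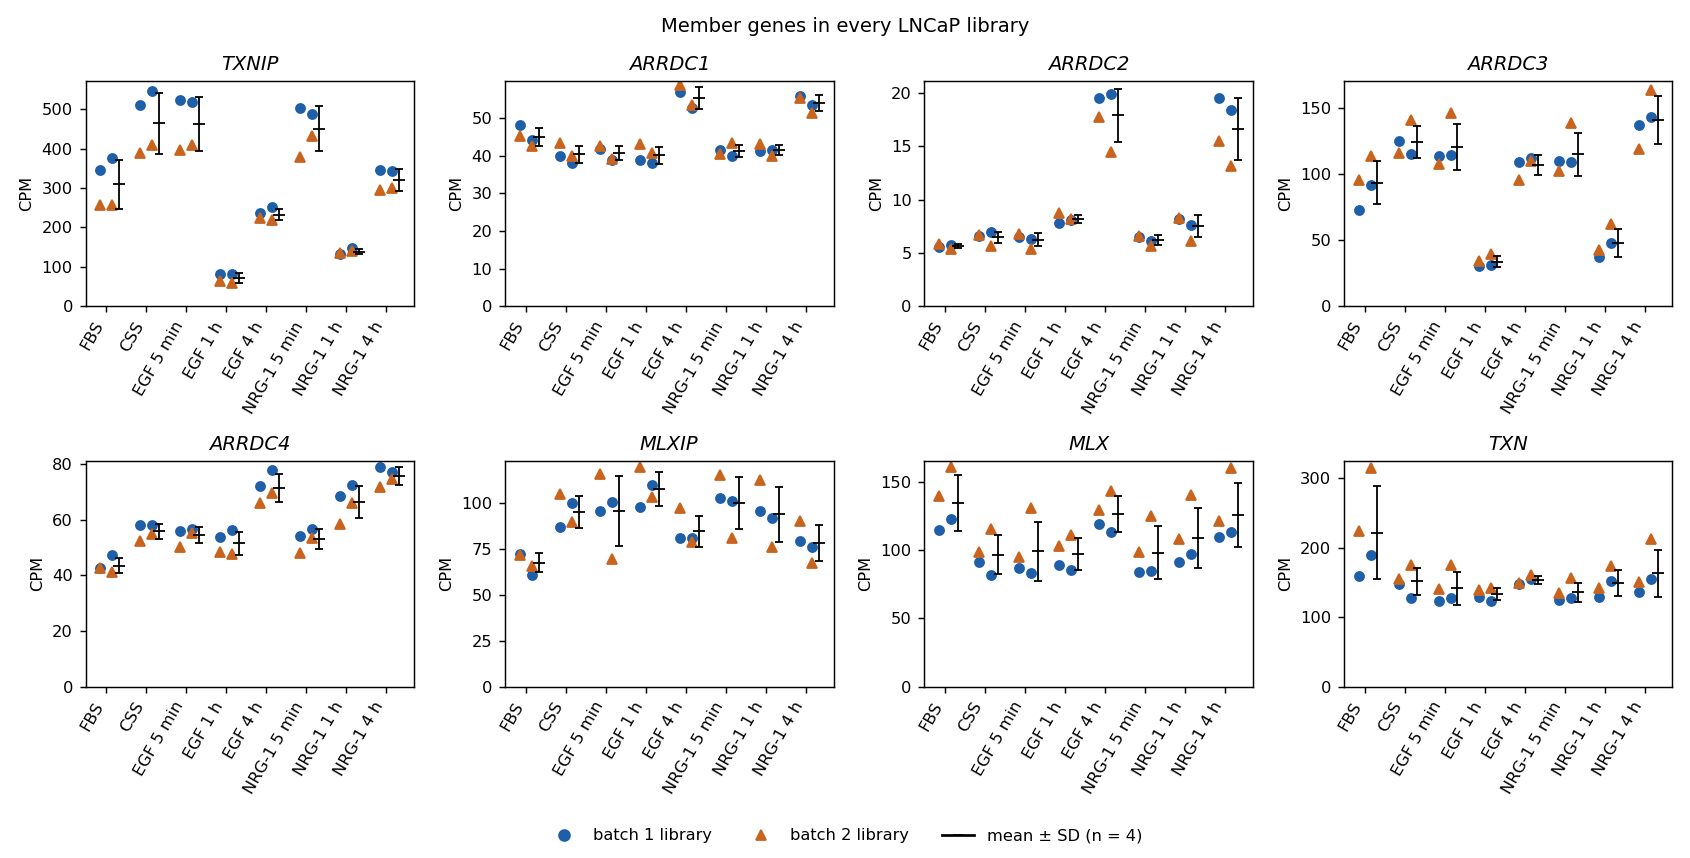
Normalized expression of each member in every library, in CPM on a linear axis that starts at 0, by group. Circles are batch 1, triangles are batch 2, and black marks are the mean ± SD of 4 libraries. *TXNIP* and *ARRDC3* are low in all 8 of the 1-hour libraries, and *ARRDC2* is high in all 8 of the 4-hour libraries.

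The size of the 1-hour fall, on which the set was chosen, was a log2 fold change (log2FC ± SE, as throughout) of -2.70 ± 0.076 with EGF, or 6.51-fold lower than CSS, and -1.72 ± 0.073 with NRG-1, or 3.30-fold lower. Within batches, the EGF values were -2.69 within batch 1 and -2.70 within batch 2. The NRG-1 values were -1.91 within batch 1 and -1.54 within batch 2. The return from 1 to 4 hours, which uses the same 1-hour libraries, was 1.72 with EGF and 1.20 with NRG-1 on the log2 scale.

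The remaining fall at 4 hours was tested. Against CSS, *TXNIP* was lower with EGF (log2FC -0.98 ± 0.072, adjusted P = 3.02e-12, tested here and below by quasi-likelihood in edgeR with Benjamini-Hochberg adjustment over 16995 genes) and with NRG-1 (log2FC -0.52 ± 0.071, adjusted P = 7.01e-07). These comparisons share the CSS libraries with the contrast that chose the set. Against 5 minutes of the same ligand, which shares no library with it, *TXNIP* was lower at 4 hours of EGF (log2FC -0.98 ± 0.072, adjusted P = 3.29e-12; unadjusted 95% CI, as throughout, -1.13 to -0.83) and of NRG-1 (log2FC -0.49 ± 0.071, adjusted P = 2.24e-06; 95% CI -0.63 to -0.34). The values were -1.10 within batch 1 and -0.83 within batch 2 with EGF. They were -0.53 within batch 1 and -0.42 within batch 2 with NRG-1. At 5 minutes against CSS, the intervals of the log2 fold change were -0.15 to 0.14 for EGF and -0.18 to 0.11 for NRG-1, and both spanned 0. In RNA from whole cultures, a change in all cells and a larger change in some of them cannot be told apart, nor can fewer cells of a type and less RNA per cell.

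EGF lowered *TXNIP* further than NRG-1 did. At 1 hour *TXNIP* was 1.97-fold lower with EGF than with NRG-1 (log2FC -0.98 ± 0.072). The set was chosen on *TXNIP* in these 1-hour libraries, so this value is a description. At 4 hours *TXNIP* was 1.38-fold lower with EGF (log2FC -0.46 ± 0.072, adjusted P = 0.000316). At each time every EGF library lay below every NRG-1 library, so any pairing of the libraries gives this order. At 4 hours the difference was -0.50 within batch 1 and -0.41 within batch 2, with adjusted P = 0.000303 and 0.235 in the edgeR fits of each batch alone. Over all alternatives, the 4-hour adjusted P ran from 1.90e-07 to 0.235.

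*ARRDC3*, an adaptor in the trafficking and ubiquitination of beta-adrenergic receptors and integrins, was also low at 1 hour and was near its CSS level at 4 hours. In CSS the libraries held 125 and 115 CPM in batch 1 and 117 and 141 CPM in batch 2. The 1-hour EGF libraries held 30.4 and 31.4 CPM in batch 1 and 34.1 and 39.3 CPM in batch 2. At 1 hour of NRG-1 they held 37.6 and 48.0 CPM in batch 1 and 42.8 and 62.4 CPM in batch 2. The 1-hour libraries lay far below CSS with no overlap, and the log2 fold changes were -1.89 ± 0.13 for EGF and -1.39 ± 0.13 for NRG-1. Within batches, the EGF values were -1.95 within batch 1 and -1.81 within batch 2. The 4-hour EGF libraries held 109.7 and 112 CPM in batch 1 and 96.1 and 110.3 CPM in batch 2. The 4-hour NRG-1 libraries held 137 and 144 CPM in batch 1 and 119.5 and 164 CPM in batch 2. *ARRDC3* rose from 1 to 4 hours with EGF (log2FC 1.67 ± 0.13, adjusted P = 1.31e-11) and with NRG-1 (log2FC 1.57 ± 0.13, adjusted P = 5.43e-11). Both tests use 1-hour libraries of the contrast that chose the set.

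At 4 hours, *ARRDC3* did not pass the test against CSS with EGF (log2FC -0.21 ± 0.13, adjusted P = 0.167) or NRG-1 (log2FC 0.18 ± 0.13, adjusted P = 0.264). The 4 EGF libraries nevertheless lay just below all 4 CSS libraries, and in the paired fit with the replicate block the adjusted P for EGF was 0.021. On log2(TPM + 1) with limma it was 0.00165, and over all alternatives it ran from 0.00165 to 0.44. Against 5 minutes of NRG-1 the 4-hour value was 0.30 (adjusted P = 0.0595, and 0.00215 with the replicate block; 0.00215 to 0.558 over all alternatives). It passed without NRG-1 4-hour batch 2 replicate 1 and without NRG-1 5-minute batch 2 replicate 2, at adjusted P = 0.0146 to 0.0258. EGF and NRG-1 differed in *ARRDC3* by -0.50 at 1 hour (adjusted P = 0.0528) and -0.40 at 4 hours (adjusted P = 0.13), with EGF lower and neither past the threshold. With the replicate block those adjusted P values were 0.000275 and 0.00271. Over all alternatives they ran from 0.000275 to 0.908 at 1 hour and from 0.00271 to 0.887 at 4 hours, and the 1-hour difference passed without NRG-1 1-hour replicate 1 of either batch (adjusted P = 0.025 to 0.0265).

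*ARRDC4*, the paralog that holds an E-box in its promoter window, differed between the ligands at 1 hour and rose with both by 4 hours. In CSS the libraries held 58.3 and 58.0 CPM in batch 1 and 52.5 and 54.8 CPM in batch 2. EGF for 1 hour gave 53.7 and 56.3 CPM in batch 1 and 48.4 and 47.8 CPM in batch 2, overlapping with CSS, and at 1 hour of NRG-1 they held 68.6 and 72.5 CPM in batch 1 and 58.6 and 66.2 CPM in batch 2, above all CSS libraries. The 1-hour log2 differences from CSS were -0.12 ± 0.047 and 0.25 ± 0.047. Compared with each other, the ligands differed at 1 hour, with EGF lower (log2FC -0.37 ± 0.047, adjusted P = 1.10e-05). The difference was -0.35 within batch 1 and -0.37 within batch 2, with adjusted P = 0.00532 and 0.601 in fits of each batch alone (5.26e-13 to 0.601 over all alternatives). EGF for 4 hours gave 72.3 and 78.1 CPM in batch 1 and 66.1 and 69.9 CPM in batch 2. NRG-1 for 4 hours gave 79.2 and 77.4 CPM in batch 1 and 71.9 and 74.8 CPM in batch 2. Every 4-hour library exceeded every CSS library, a rise with EGF (log2FC 0.36 ± 0.047, adjusted P = 2.88e-07) and with NRG-1 (log2FC 0.44 ± 0.047, adjusted P = 9.43e-09), and the ligands no longer differed past the threshold (log2FC -0.08 ± 0.047, 95% CI -0.18 to 0.01).

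**Figure D3:**
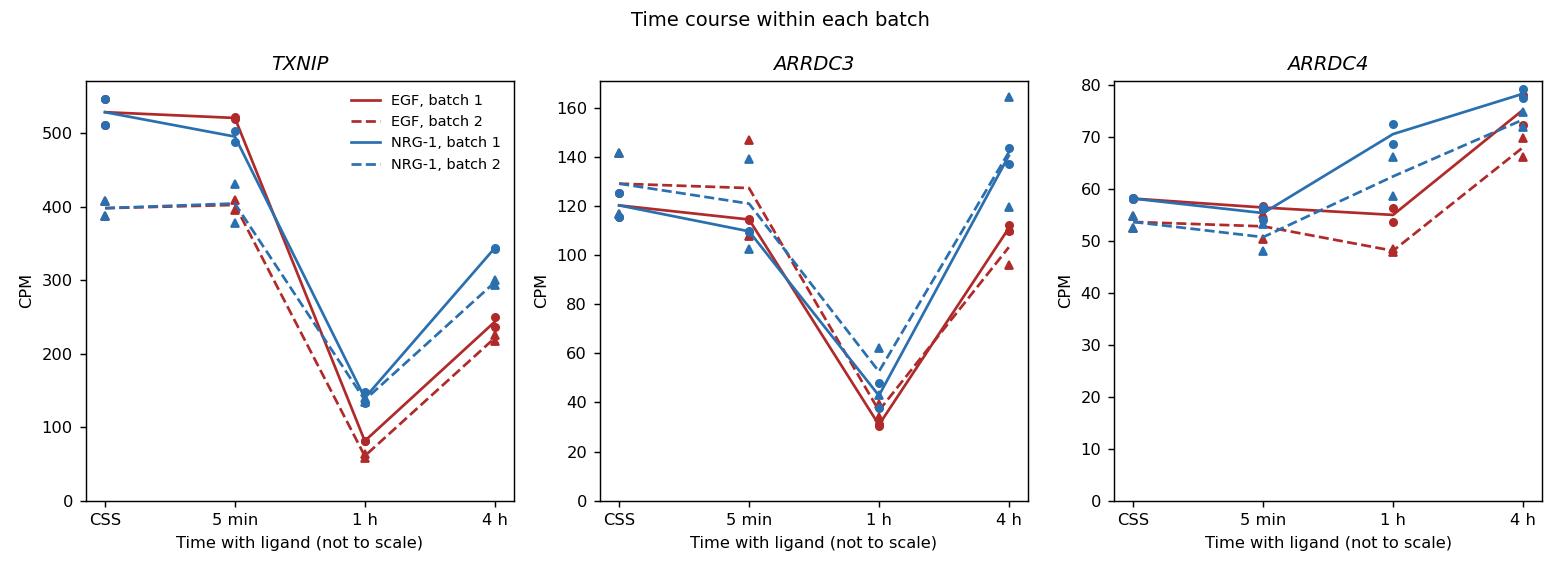
CPM of *TXNIP*, *ARRDC3*, and *ARRDC4* in CSS and after 5 minutes, 1 hour, and 4 hours of EGF (red) or NRG-1 (blue). Points are libraries, and lines join batch means, solid for batch 1 and dashed for batch 2. *TXNIP* and *ARRDC3* dip at 1 hour in both batches, and *ARRDC4* at 1 hour is higher with NRG-1 (mean 66.5 CPM) than with EGF (mean 51.6 CPM).

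*ARRDC2*, the scarcest member, had the largest rise among the members at 4 hours. In CSS its libraries held 6.56 and 6.92 CPM in batch 1 and 6.66 and 5.64 CPM in batch 2. At 1 hour of EGF they held 7.82 and 8.06 CPM in batch 1 and 8.69 and 8.14 CPM in batch 2 and at 1 hour of NRG-1 8.21 and 7.64 CPM in batch 1 and 8.30 and 6.08 CPM in batch 2. EGF libraries were above all CSS libraries by then, a log2 difference of 0.35, and NRG-1 libraries overlapped with them, at 0.23. At 4 hours of EGF the libraries held 19.5 and 19.9 CPM in batch 1 and 17.7 and 14.5 CPM in batch 2. At 4 hours of NRG-1 they held 19.5 and 18.4 CPM in batch 1 and 15.5 and 13.1 CPM in batch 2. The 4-hour groups did not overlap with CSS, and the level was 2.77-fold that of CSS with EGF (log2FC 1.47 ± 0.10, adjusted P = 7.00e-13) and 2.57-fold with NRG-1 (log2FC 1.36 ± 0.10, adjusted P = 5.78e-12). The 5-minute libraries of both ligands, between 5.37 and 6.77 CPM, overlapped with CSS.

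*ARRDC1*, which directs the budding of vesicles from the plasma membrane, rose at 4 hours. Its libraries held 40.0 and 37.9 CPM in batch 1 and 43.5 and 39.8 CPM in batch 2 in CSS. At 1 hour the group means were 40.1 CPM with EGF and 41.5 CPM with NRG-1, and both overlapped with CSS. After EGF for 4 hours they held 56.8 and 52.7 CPM in batch 1 and 58.8 and 53.3 CPM in batch 2. After NRG-1 for 4 hours they held 55.9 and 53.4 CPM in batch 1 and 55.2 and 51.2 CPM in batch 2. Every 4-hour library was above every CSS library, with a rise of 0.46 ± 0.052 with EGF (adjusted P = 1.70e-08) and 0.42 ± 0.052 with NRG-1 (adjusted P = 1.15e-07) on the log2 scale.

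*TXNIP* made up a smaller share of the alpha-arrestin RNA at 1 hour. Over the summed TPM of the 5 genes, it took 68.2% ± 4.09 (SD, n = 4) in CSS, 32.2% ± 4.25 at 1 hour of EGF, and 44.7% ± 0.661 at 1 hour of NRG-1. At 4 hours it took 47.6% ± 0.978 with EGF and 53.5% ± 1.65 with NRG-1. The other 4 genes together summed to 131 TPM in CSS, to 93.9 and 100.4 TPM at 1 hour of EGF and NRG-1, and to 149 and 159.6 TPM at 4 hours of EGF and NRG-1. These shares follow from the fall on which *TXNIP* was chosen and are given as levels only.

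The genes for the glucose-sensing pair overlapped with CSS at 1 hour. *MLXIP*, whose product shuttles between the cytoplasm and the nucleus, held 86.8 and 100.1 CPM in batch 1 and 105 and 89.6 CPM in batch 2 in CSS. After EGF for 1 hour they held 97.9 and 109.9 CPM in batch 1 and 120.0 and 104 CPM in batch 2 and at 1 hour of NRG-1 95.7 and 92.2 CPM in batch 1 and 113 and 75.9 CPM in batch 2. These overlapped with CSS, with log2 differences of 0.18 and -0.02. The 4-hour EGF libraries held 81.0 and 81.3 CPM in batch 1 and 97.6 and 79.1 CPM in batch 2. The 4-hour NRG-1 libraries held 79.3 and 76.3 CPM in batch 1 and 90.6 and 67.4 CPM in batch 2. *MLXIP* did not pass the test at 4 hours against CSS with EGF (log2FC -0.17 ± 0.13, 95% CI -0.44 to 0.09, adjusted P = 0.279) or NRG-1 (log2FC -0.28 ± 0.13, 95% CI -0.55 to -0.02, adjusted P = 0.0741). With the replicate block, these adjusted P values were 0.0424 and 0.00139, and over all alternatives they ran from 0.0424 to 0.824 and from 0.00139 to 0.566. Without NRG-1 4-hour batch 2 replicate 1 the NRG-1 fall passed (adjusted P = 0.036). It was lower at 4 hours than at 5 minutes of NRG-1 (log2FC -0.35 ± 0.13, adjusted P = 0.0252) and lower at 4 hours than at 1 hour of EGF (log2FC -0.35 ± 0.13, adjusted P = 0.0269). The NRG-1 call was lost without 5-minute batch 1 replicate 1 or 2, 5-minute batch 2 replicate 1, or 4-hour replicate 2 of either batch (adjusted P = 0.0529 to 0.105). The EGF call was lost without 4-hour batch 1 replicate 1, replicate 2 of batch 1 at either time, 1-hour batch 2 replicate 1, or 4-hour batch 2 replicate 2 (adjusted P = 0.0596 to 0.0891). Neither passed in batch 2 alone, and over all alternatives the adjusted P values ran from 0.000171 to 0.552 and from 0.000164 to 0.506.

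*MLX*, the DNA-binding partner of MLXIP, rose at 4 hours. In CSS its libraries held 91.2 and 81.5 CPM in batch 1 and 98.8 and 116 CPM in batch 2. At 1 hour the means were 97.1 CPM with EGF and 109 CPM with NRG-1, both overlapping with CSS, although NRG-1 batch 2 replicate 2, at 140.3 CPM, lay above every CSS library. EGF for 4 hours gave 119 and 113 CPM in batch 1 and 129 and 144 CPM in batch 2. NRG-1 for 4 hours gave 109 and 113 CPM in batch 1 and 121 and 160.2 CPM in batch 2. Batch 2 ran higher throughout, so the 4-hour groups overlapped with CSS, but every 4-hour library exceeded both CSS libraries of its own batch. With batch in the fit, *MLX* was higher with EGF (log2FC 0.39 ± 0.094, adjusted P = 0.000953) and NRG-1 (log2FC 0.38 ± 0.094, adjusted P = 0.00151). Without a batch term neither passed (adjusted P = 0.0561 and 0.068), and over all alternatives the adjusted P values ran from 1.02e-07 to 0.225 with EGF and from 3.70e-07 to 0.222 with NRG-1. In 30 of 32 libraries the expected count of *MLX* was not a whole number, so part of its reads was divided with other features, and its level is less certain.

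*TXN*, the thioredoxin that TXNIP binds, showed no change past the threshold with either ligand against CSS. Its libraries held 147 and 128 CPM in batch 1 and 155 and 176 CPM in batch 2 in CSS. The 1-hour EGF libraries held 128 and 123 CPM in batch 1 and 138 and 143 CPM in batch 2 and at 1 hour of NRG-1 129 and 152 CPM in batch 1 and 141 and 173 CPM in batch 2. At 4 hours of EGF the libraries held 148 and 155 CPM in batch 1 and 149 and 160.2 CPM in batch 2. At 4 hours of NRG-1 they held 136 and 155 CPM in batch 1 and 149.8 and 212 CPM in batch 2. All these groups overlapped with CSS. The 4-hour log2 differences were 0.03 with EGF (95% CI -0.22 to 0.27, adjusted P = 0.883) and 0.11 with NRG-1 (95% CI -0.14 to 0.35, adjusted P = 0.505). Against 5 minutes of NRG-1 the 4-hour difference was 0.26 (adjusted P = 0.0726, and 0.0153 with the replicate block; 0.0153 to 0.324 over all alternatives). It passed without NRG-1 4-hour batch 2 replicate 1 (adjusted P = 0.0258).

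Over the 8 members, 0 were called at 5 minutes of EGF or NRG-1 at an adjusted P below 0.05 in edgeR, 0 had an unadjusted P below 0.05, and DESeq2 and limma called 0 as well. Of all genes tested, 0.00588% were called higher and 0% lower with EGF, and 0% higher and 0% lower with NRG-1. At 1 hour, 1 member was past the threshold upward and 2 downward with each ligand, beside 6% of all genes upward and 3.51% downward with EGF and 4.45% and 2.28% with NRG-1. The gene past it upward was *ARRDC2* with EGF and *ARRDC4* with NRG-1. That of *ARRDC2* was lost in 10 of 20 alternatives, among them limma, each batch alone, no batch term, and leaving out CSS batch 1 replicate 1, CSS batch 2 replicate 2, or 1-hour EGF batch 2 replicate 1 or 2. That of *ARRDC4* was lost in 4 of 20, which were batch 2 alone and the 3 settings of limma. With the replicate block, *ARRDC4* was also past it downward with EGF, and *ARRDC2* and *MLX* upward with NRG-1. Since the set was chosen on this contrast, nothing is read from these counts. At 4 hours against CSS, 4 members rose and 1 fell with each ligand. Those that rose were *ARRDC1*, *ARRDC2*, *ARRDC4*, and *MLX*, and the one that fell was *TXNIP*. Of all genes, 24.6% rose and 24.6% fell with EGF, and 21.6% rose and 21% fell with NRG-1.

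The other contrasts of time gave like counts. Between 5 minutes and 4 hours, 4 members rose and 1 fell with EGF, beside 24.1% and 24.6% of all genes, and 4 rose and 2 fell with NRG-1, beside 21.6% and 21.4%. Between 1 and 4 hours, 5 of the 7 members other than *TXNIP* rose and 1, *MLXIP*, fell with EGF, beside 22.5% and 21.5% of all genes. With NRG-1, 4 of the 7 rose and 0 fell, beside 19% and 18.5%. The counts between 1 and 4 hours use 1-hour libraries of the contrast that chose the set. By DESeq2 the count with NRG-1 between 5 minutes and 4 hours was 7 members in place of 6. Between the ligands at 1 hour, 2 members, *TXNIP* and *ARRDC4*, were lower with EGF and 0 were higher, beside 0.118% and 0.941% of all genes. *TXNIP* was chosen on these 1-hour libraries, so its place in this count is a description. At 4 hours, 1 member, *TXNIP*, was lower with EGF and 0 were higher, beside 0.412% and 1.25%.

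**Figure D4:**
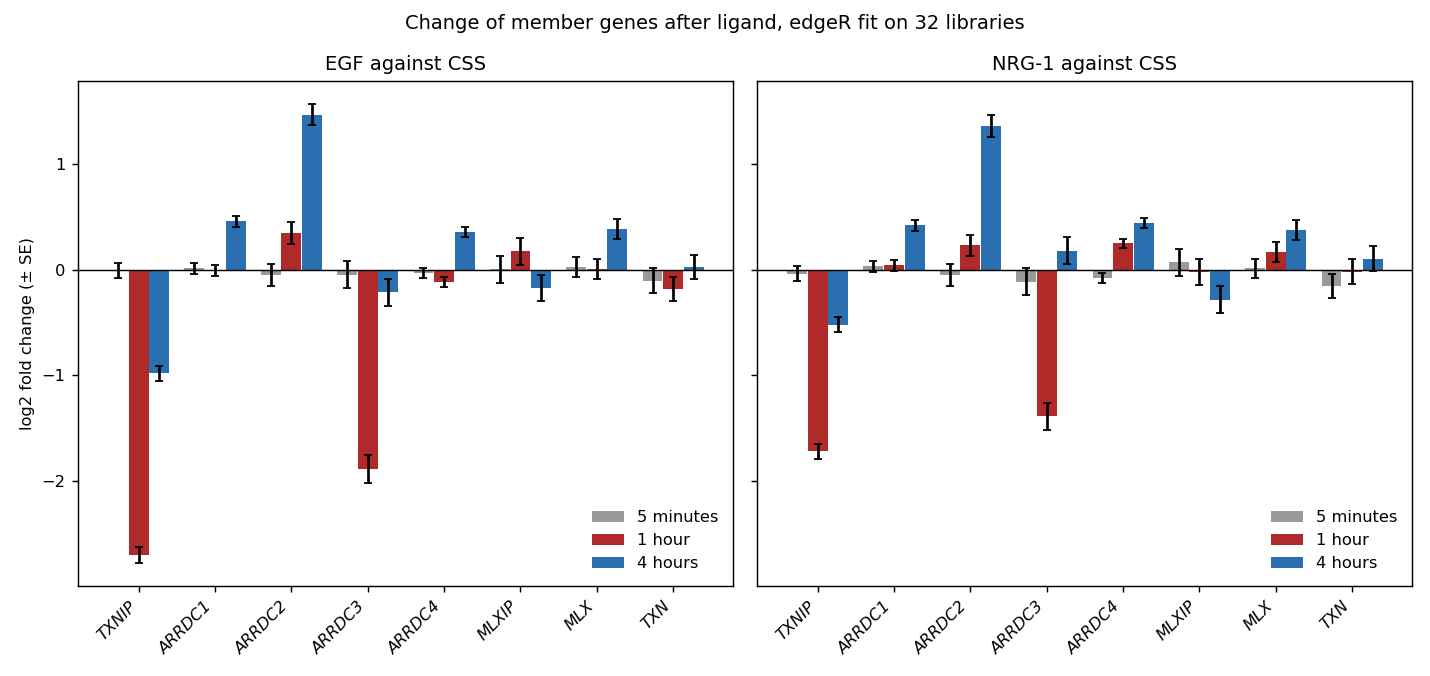
log2 fold change of each member against CSS at 5 minutes (gray), 1 hour (red), and 4 hours (blue) of EGF or NRG-1, with bars of ± SE from the edgeR fit on 32 libraries. The 1-hour bars of *TXNIP* reach -2.70 with EGF and -1.72 with NRG-1, and the 4-hour bars of *ARRDC2* reach 1.47 and 1.36.

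Serum also separated the members. Cells kept in FBS had lower *TXNIP* than cells in CSS (log2FC -0.59 ± 0.072, adjusted P = 7.45e-08). This comparison shares the CSS libraries with the contrast that chose the set. *ARRDC4* in FBS held 42.6 and 47.4 CPM in batch 1 and 42.7 and 41.2 CPM in batch 2, below all CSS libraries (log2FC -0.36 ± 0.047, adjusted P = 2.44e-07). *ARRDC3* held 73.3 and 92.3 CPM in batch 1 and 96.0 and 114 CPM in batch 2 (log2FC -0.42 ± 0.13, adjusted P = 0.00682). *MLXIP* held 72.2 and 61.0 CPM in batch 1 and 72.0 and 65.7 CPM in batch 2 (log2FC -0.50 ± 0.13, adjusted P = 0.00179). The FBS libraries of these 4 genes did not overlap with CSS, and all 4 fell. The share of all genes without such overlap was not counted, so nothing particular to these genes is read from it. *MLX* in FBS held 115 and 123 CPM in batch 1 and 139.6 and 161 CPM in batch 2, higher than CSS within each batch (log2FC 0.48 ± 0.094, adjusted P = 0.000102). *TXN* held 159 and 189.6 CPM in batch 1 and 224 and 314 CPM in batch 2 (log2FC 0.53 ± 0.12, adjusted P = 0.000345). Every FBS library of *TXN* exceeded both CSS libraries of its batch, and its SD of 67.2 CPM in FBS was the widest of the 8 groups. *ARRDC1* was higher by 0.16 in CPM (adjusted P = 0.0104) but not in TPM, where limma gave -0.04 (adjusted P = 0.794; 0.00129 to 0.864 over all alternatives). The call in CPM was lost without FBS batch 1 replicate 1 (adjusted P = 0.057). *ARRDC2* held a mean of 5.64 CPM and did not pass the test (log2FC -0.19 ± 0.10, adjusted P = 0.124; 0.0373 with the replicate block and 0.0117 to 0.644 over all alternatives). In all, 3 members rose and 4 fell, beside 26% and 26.8% of all genes. In batch 2 alone 3 members passed.

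Genes around these members were taken from 6 lists: other arrestin fold proteins, the MAX and MLX network, glucose-responsive targets of MLXIP or MLXIPL, glucose entry and phosphorylation, the thioredoxin and peroxiredoxin system, and the NEDD4 family. Counts are against CSS at 4 hours. Of all genes, 24.6% rose and 24.6% fell with EGF, and 21.6% rose and 21% fell with NRG-1. Listed genes other than the members were not recomputed under the alternatives.

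Among other arrestin genes, only *ARRB1* was called. Of 8 listed, 4 were tested, and 1 rose with each ligand and 0 fell. The share that rose was near that of all genes, 24.6% with EGF and 21.6% with NRG-1. Nothing about the list is read from this count. The beta-arrestin *ARRB1* rose by 0.21 for EGF (adjusted P = 0.0243) and 0.19 for NRG-1 (adjusted P = 0.0481), the latter close to the threshold. *ARRB2*, the other beta-arrestin, had 44.8 ± 1.17 CPM (SD, n = 4) in CSS and 44.7 ± 0.957 CPM at 4 hours of EGF. The retromer subunits *VPS26A* and *VPS26B* had log2 differences of -0.03 and -0.01 with EGF, neither past the threshold.

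The MAX and MLX network, which includes the factors that compete for E-boxes with MLX, moved mostly downward. Of 9 genes tested, 2 rose and 5 fell with EGF, and 1 rose and 6 fell with NRG-1, with median log2 fold changes of -0.16 and -0.22 beside -0.02 and -0.01 for all genes. *MYC* rose from 258 CPM in CSS to 427 CPM with EGF (log2FC 0.73 ± 0.052, adjusted P = 1.72e-12) and 393 CPM with NRG-1 (log2FC 0.61 ± 0.052, adjusted P = 1.04e-10). The repressors *MXD3* and *MXD4* fell, by 0.80 and 0.49 with EGF and by 0.61 and 0.51 with NRG-1 on the log2 scale (adjusted P from 3.65e-09 to 6.95e-07). At 1 hour, the ligands differed in *MYC*, which was lower with EGF (log2FC -0.39 ± 0.052, adjusted P = 1.77e-05). Its 1-hour means were 208 CPM with EGF and 273 CPM with NRG-1. The 1-hour EGF libraries, at most 217 CPM, lay below every CSS library, the lowest of which held 254 CPM.

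Listed targets of MLXIP or its paralog MLXIPL moved in both directions. Of 18 listed, 14 were tested; 5 rose and 4 fell with EGF, and 5 rose and 5 fell with NRG-1. *KLF10*, an early-response repressor, rose from 37.2 CPM to 117 CPM with EGF (log2FC 1.65 ± 0.085, adjusted P = 1.29e-15) and to 68.5 CPM with NRG-1 (log2FC 0.88 ± 0.084, adjusted P = 9.06e-10), with 1-hour means of 347 and 311 CPM. It was higher with EGF than with NRG-1 at 4 hours (log2FC 0.77 ± 0.083, adjusted P = 1.36e-06). *GPD1*, a glycerol-3-phosphate dehydrogenase, rose from a low 0.855 CPM to 2.25 CPM with EGF (adjusted P = 3.23e-09) and 2.35 CPM with NRG-1 (adjusted P = 1.89e-09). *ACACB*, an acetyl-CoA carboxylase, fell by 1.13 with EGF (adjusted P = 1.08e-08) and 1.08 with NRG-1 (adjusted P = 3.54e-08), and the transcriptional repressor *HBP1* fell by 1.28 (adjusted P = 8.39e-08) and 0.85 (adjusted P = 5.52e-05), all on the log2 scale.

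Genes of glucose entry and phosphorylation were called in both directions. Of 11 tested, 4 rose and 2 fell with EGF, and 2 rose and 2 fell with NRG-1. With so few genes, no response of the list is read from these counts beside the shares of all genes. *SLC2A1* (GLUT1), a transporter that TXNIP binds, stood at 47.5 ± 5.03 CPM in CSS, 66.8 ± 4.08 CPM at 1 hour of EGF, and 65.0 ± 7.19 CPM at 1 hour of NRG-1 (SD, n = 4). By 4 hours it had fallen to 38.0 ± 3.70 CPM with EGF (log2FC -0.32 ± 0.057, adjusted P = 2.52e-05) and 29.6 ± 3.50 CPM with NRG-1 (log2FC -0.69 ± 0.058, adjusted P = 7.89e-11). The ligands differed at 4 hours, with EGF higher (log2FC 0.36 ± 0.058, adjusted P = 0.000441). *SLC2A12* (GLUT12) fell by 1.40 with EGF (adjusted P = 4.83e-15) and 1.09 with NRG-1 (adjusted P = 1.66e-12) on the log2 scale.

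In the thioredoxin and peroxiredoxin system, 4 of 16 genes rose and 2 fell with each ligand. The share that rose was near that of all genes, 24.6% with EGF and 21.6% with NRG-1. No response of the system as a whole is read from these counts. *TXNRD1*, the reductase that recharges thioredoxin, rose from 462 CPM to 884 CPM with EGF (log2FC 0.94 ± 0.060, adjusted P = 1.68e-13) and 771 CPM with NRG-1 (log2FC 0.74 ± 0.060, adjusted P = 3.89e-11). *SRXN1*, which restores peroxiredoxins, rose by 0.99 (adjusted P = 2.83e-13) and 0.79 (adjusted P = 4.98e-11). The glutaredoxin *GLRX* fell by 0.73 and 0.57 on the log2 scale, and *TXNRD3* fell by 0.29 and 0.24 (adjusted P from 4.91e-05 to 0.000969 over the 4 values).

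Ubiquitin ligases of the NEDD4 family, which alpha-arrestins recruit, mostly rose. Of 8 tested, 6 rose and 1 fell with each ligand, with medians of 0.39 and 0.50 beside -0.02 and -0.01 for all genes. *NEDD4* rose from 23.9 ± 2.14 CPM to 82.2 ± 4.93 CPM with EGF (log2FC 1.79 ± 0.089, adjusted P = 6.91e-16) and 88.2 ± 5.17 CPM with NRG-1 (log2FC 1.89 ± 0.090, adjusted P = 3.44e-16; SD, n = 4). At 1 hour it stood at 22.1 and 22.0 CPM. *SMURF1* rose by 0.84 (adjusted P = 8.58e-08) and 0.64 (adjusted P = 9.96e-06), and *WWP2* fell by 0.48 (adjusted P = 2.31e-05) and 0.41 (adjusted P = 0.000195) on the log2 scale.

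The genes whose course was most like that of *TXNIP* were ranked by Pearson's r of log2 CPM over the 8 group means, taken within each batch, by the lower of the 2 values, among 12011 genes with a mean log2 CPM of at least 1. The points share libraries within a batch, so r is a description. The 5 genes most alike were *ZNF792* (r = 0.99 in both batches), *ZKSCAN4* (0.98 in both), *ZNF624* (0.98 and 1.00), *ZNF606* (0.98 and 0.97), and *SLC25A21-AS1* (0.98 and 0.96). The first 4 encode zinc finger proteins. *ZNF792* stood at 6.42 ± 0.299 CPM in CSS, 2.34 ± 0.342 CPM at 1 hour of EGF, and 4.86 ± 0.344 CPM at 4 hours (SD, n = 4). The 3 most opposite were *KLF4* (r = -0.996 and -0.991), *DDX20* (-0.99 and -0.98), and *ERRFI1*, a feedback inhibitor of EGFR (-0.97 and -0.99). *ERRFI1* stood at 34.8 CPM in CSS, 219 ± 41.5 CPM at 1 hour of EGF, and 96.3 ± 6.38 CPM at 1 hour of NRG-1. Among the members, *ARRDC3* had r = 0.90 and 0.95 with *TXNIP*. The other 6 lay between -0.41 and 0.23.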

How the data were processed

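RNA-seq of polyadenylated RNA was made with stranded libraries from LNCaP cells, 32 libraries in 8 groups. The authors trimmed reads with Trimmomatic 0.36 and estimated gene values with RSEM around STAR 2.7.0f on hg19 (submitters' processing notes). The gene annotation is not given in the sources used here. They deposited an expected count per gene and library, unscaled, which RSEM may divide among features. Besides *MLX*, counts that were not whole occurred for *HBP1*, *MXD3*, *MXD4*, *SMURF1*, *SLC2A1*, *TXNRD3*, *DDX20*, *ZKSCAN4*, *ZNF606*, and *SLC25A21-AS1*. Their levels are less certain for the same reason. They also deposited TPM, scaled for transcript length and library total.

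Expected counts were rounded. A gene was tested if 3 or more libraries had 5 or more counts of it. The tool was edgeR 4.0.16 (R 4.3.3), run by quasi-likelihood with TMM scaling and terms for group and batch over all 32 libraries. P values were adjusted by Benjamini-Hochberg within each comparison, and a gene was called at an adjusted P below 0.05 without a fold limit. CPM is the count scaled by TMM library size. SE was derived from the fit. The 95% CI was built from that SE with a t quantile of fixed degrees of freedom, so it is approximate. The steps were tested on simulated data. Alternatives were DESeq2 1.42.0, limma 3.58.1 on log2(TPM + 1) or log2(TPM + 0.1), DESeq2 size factors, other filters, no batch term, a replicate block, only the compared groups, each batch alone, and each library left out. Groups, batches, and replicates came from the labels, whose titles number the replicates within each batch. P values weigh a difference against the spread between these libraries that remains after the terms for group and batch. All libraries come from 1 cell line.

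Samples of the same batch and replicate number deviated together in all 112 pairs of groups (r of deviations 0.13 to 0.57), and the labels give them a shared batch, so they were treated as paired in the replicate block. These deviations still held the difference between batches. Once batch means were removed, r was -0.06 to 0.11 in batch 1, with 1 of 28 pairs over 0.1. In batch 2 it was 0.07 to 0.43, with 26 of 28 pairs over 0.1. Batch 1 thus showed little pairing beyond batch, and values with the replicate block are given as alternatives only.

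The members and the 6 gene lists were chosen with earlier results of these data known. Named were all members, up to 2 genes per list with the largest rise and up to 2 with the largest fall among those called in the same direction with both ligands at 4 hours, every tested gene of a list with 5 or fewer tested, and the 5 genes most like and 3 most opposite *TXNIP*. One gene that this rule names is not reported here. *CD68* and *PTPRC* were singled out after their values were seen. Promoter windows came from RefSeq on GRCh38.p14, and no coordinate was converted between builds.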

Additional observations from a re-analysis of the deposited data

Results flagged for a closer look

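EGF and NRG-1 differed in several genes by a test of the difference itself, the edgeR contrast between the ligands. *TXNIP* was lower with EGF at 4 hours (log2 fold change -0.46, adjusted P = 0.000316) and, as a description only, at 1 hour (-0.98). The libraries of the ligands did not overlap at either time. *ARRDC4* was lower with EGF at 1 hour (-0.37, adjusted P = 1.10e-05). *MYC* was lower with EGF at 1 hour (-0.39, adjusted P = 1.77e-05). At 4 hours *KLF10* was higher with EGF (0.77, adjusted P = 1.36e-06), as was *SLC2A1* (0.36, adjusted P = 0.000441), and *SLC2A12* was lower (-0.32, adjusted P = 0.0256).

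1 library stood apart from the other 3 of its group in 2 of the 64 member and group combinations. Chance would give about 3 if the 4 libraries of a group were draws from 1 population. Each group joins 2 batches, so that figure need not hold here. The library was batch 2 replicate 1 of EGF at 4 hours in both. *ARRDC3* stood at 96.1 CPM there and at 109.7 to 112 CPM in the others. *MLXIP* stood at 97.6 CPM there and at 79.1 to 81.3 CPM in the others.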

How the results depend on the processing

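Of 2080 values of members recomputed under alternatives, 1896 kept their direction and side of the threshold or, where untested, moved by less than 1 SD. Another 42 lost the call, 56 gained it, 3 reversed, and 83 moved in another way. Scaling by DESeq2 size factors moved 0 of 104. *TXNIP* at 5 minutes against CSS, near 0 and uncalled, changed sign. For EGF it was 0.00012 with at least 10 counts in every library, 0.0052 in batch 2 alone, and 0.0060 with limma under either pseudocount or without a filter. For NRG-1 it was 0.013 in batch 2 alone and 0.010 with limma in the same 3 settings. With a library left out it ran from -0.035 to 0.035 for EGF and from -0.070 to 0.0016 for NRG-1.

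Counts of members called moved by over 1.5 times in a few settings. With the replicate block, 5 members in place of 3 passed at 1 hour of NRG-1 and 2 in place of 1 between the ligands at 4 hours. The paired fit changed no other call beyond those given beside the results and 0.04996 for *TXN* between 1 and 4 hours of EGF, 0.0043 for *MLXIP* and 0.0011 for *MLX* between 1 and 4 hours of NRG-1 (adjusted P). Other calls were gained with 1 library left out. *MLXIP* between 5 minutes and 4 hours of EGF passed without 5-minute batch 2 replicate 2 (adjusted P = 0.0307; 0.00892 to 0.947 over all alternatives). Between 1 and 4 hours of NRG-1, *MLX* passed without 4-hour batch 2 replicate 1 (0.0233) or 1-hour batch 2 replicate 2 (0.0131), and *MLXIP* without the latter (0.0364), with ranges over all alternatives of 0.000544 to 0.659 and 0.00433 to 0.701. Limma gave 2 in place of 1 between the ligands at 4 hours in all 3 settings. Batch 2 alone gave 1 in place of 2 between the ligands at 1 hour, 0 in place of 1 at 4 hours, and 3 in place of 7 for FBS, with 2 libraries a group. Without a batch term 0 members passed between the ligands at 4 hours. *TXNIP* between the ligands at 4 hours lost its call without a batch term (-0.46, adjusted P = 0.163) and in batch 2 alone (-0.41, adjusted P = 0.235). *ARRDC1* in FBS reversed in TPM, to -0.036 with limma at a pseudocount of 1, with or without a filter, and -0.037 at 0.1. The cause of these changes was not tested. Each member had at least 322 counts in every library, so depth limited no member at 0.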
